A study of Homo sapiens with 6 samples.

Results

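The Hippo effectors and a set of their direct target genes were followed in A549 cells, an established line from a human lung adenocarcinoma, after lactic acid. The genes were chosen by name as YAP1, WWTR1 (which encodes TAZ), TEAD1, TEAD4, CYR61 (now CCN1), CTGF (now CCN2), ANKRD1, AMOTL2, AJUBA and LATS2. All 10 names had a row among the 23827 genes of the count table, and all 10 were among the 15474 genes tested. Poly(A) RNA came from 3 biological replicates that received 20 mM lactic acid in their medium for 24 h and from 3 that received an equal volume of phosphate-buffered saline (PBS). No group carried any other agent or genetic change that the labels name. Both groups are 1 cancer line, and the addition brings lactate and protons together. Libraries held 33492831 to 42938870 counts. Levels are given as counts scaled to a library of 1000000 (CPM) after TMM scaling, as mean ± SD over 3 libraries. Changes are log2 fold changes of lactic acid over PBS with a standard error (SE), from edgeR's quasi-likelihood test with Benjamini-Hochberg adjustment over all tested genes, and a call is an adjusted p under 0.05.

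YAP and TAZ are transcriptional coactivators that have no DNA-binding domain of their own and reach their target genes through the TEAD factors. The Hippo kinase cascade, in which MST kinases activate LATS kinases, phosphorylates YAP and TAZ, which keeps them in the cytoplasm and marks them for degradation. In epithelial cells the pathway reads cell density, polarity and mechanical tension, and in lung cancer cells YAP and TAZ are known to promote growth. Several targets feed back on the pathway: LATS2 is one of the inhibiting kinases, AMOTL2 is a motin that retains YAP at junctions, and AJUBA is a LIM protein that restrains LATS. Since control lies largely in phosphorylation and localisation of the proteins, RNA counts measure the transcripts of these genes and not the activity of the pathway.

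TEAD factors recognise the letters GGAATG, read on either strand. Windows of 250 bases upstream of an annotated start were taken from RefSeq (GRCh38.p14) for 7 of the 10 genes, 10 windows in all because some genes have more than 1 start. The letters occurred in 5 of these genes and in 5 of the 10 windows. CTGF had 3 matches, which 29 of 35114 such windows in the genome reach or exceed (0.0826%), while 11.9% of the windows hold at least 1. The CTGF window is shown whole because this gene had the largest change of any of the 5 called members in the results that follow. It is written 5′ to 3′ on the minus strand, at chr6:131951373-131951622, and capitals mark the matches, which begin 169, 104 and 95 bases before the start.
CTGF: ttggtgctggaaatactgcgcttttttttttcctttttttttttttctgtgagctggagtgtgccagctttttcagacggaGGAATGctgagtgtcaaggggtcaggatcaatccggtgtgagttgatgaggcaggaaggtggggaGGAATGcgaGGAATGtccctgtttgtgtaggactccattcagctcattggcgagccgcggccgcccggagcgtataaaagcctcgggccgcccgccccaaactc
ANKRD1 had 2 matches, beginning 220 and 128 bases before its start, and YAP1 had 1, beginning 162 bases before. AMOTL2 had 1 in the window of 1 of its 2 starts, on the opposite strand and 69 bases before. AJUBA had 1 in the window of 1 of its 2 starts, on its own strand and 59 bases before. These sites are shown with 30 bases each, to compare the letters around the match, on the strand of the gene.
ANKRD1, chr10:90921290-90921319: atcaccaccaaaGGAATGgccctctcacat
ANKRD1, chr10:90921198-90921227: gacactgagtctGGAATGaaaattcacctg
YAP1, chr11:102110273-102110302: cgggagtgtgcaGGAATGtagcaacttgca
AMOTL2, chr3:134374499-134374528: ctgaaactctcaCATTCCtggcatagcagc
AJUBA, chr14:22976884-22976913: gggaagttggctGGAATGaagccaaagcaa
The windows of LATS2 and WWTR1 held no match, and no window was used for CYR61, TEAD1 or TEAD4. RefSeq and the gene spans given with the results, which are from GENCODE, do not place every start alike. Of the window's 250 bases, 189 lie in GENCODE exons for ANKRD1, 147 for the AMOTL2 window with a match and 250 for that of AJUBA, beside 1 for CTGF and 0 for YAP1. A match describes the sequence and is not evidence of binding in these cells.

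After lactic acid the coactivator TAZ was higher as a transcript while 3 of the 6 target genes and TEAD1 were lower. Of the 10 genes, 1 rose (WWTR1) and 4 fell (CTGF, AMOTL2, CYR61 and TEAD1). Over all tested genes 18.7% rose and 16.7% fell, together 35.4%, so calls were common throughout this comparison. The median log2 fold change was −0.092 over the 10 genes and 0.0024 over all 15474, and the median size of the change was 0.17 in both. All lactic acid libraries lay above all PBS libraries for 2 of the 10 genes, beside 24.4% of all tested genes, and below them for 5, beside 23.1% (47.5% for either direction). The falls, 4 of 10 beside 16.7%, and the genes lying below, 5 of 10 beside 23.1%, exceeded the shares over all genes. The rises did not, and the median size was alike. With 1 library left out, only 2 or 3 of the 10 genes fell. The 10 genes were chosen with earlier results of these data known, and whether they stand apart from the rest was not tested. In bulk RNA, fewer cells in a given state and less RNA per cell cannot be told apart.

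**Figure D1:**
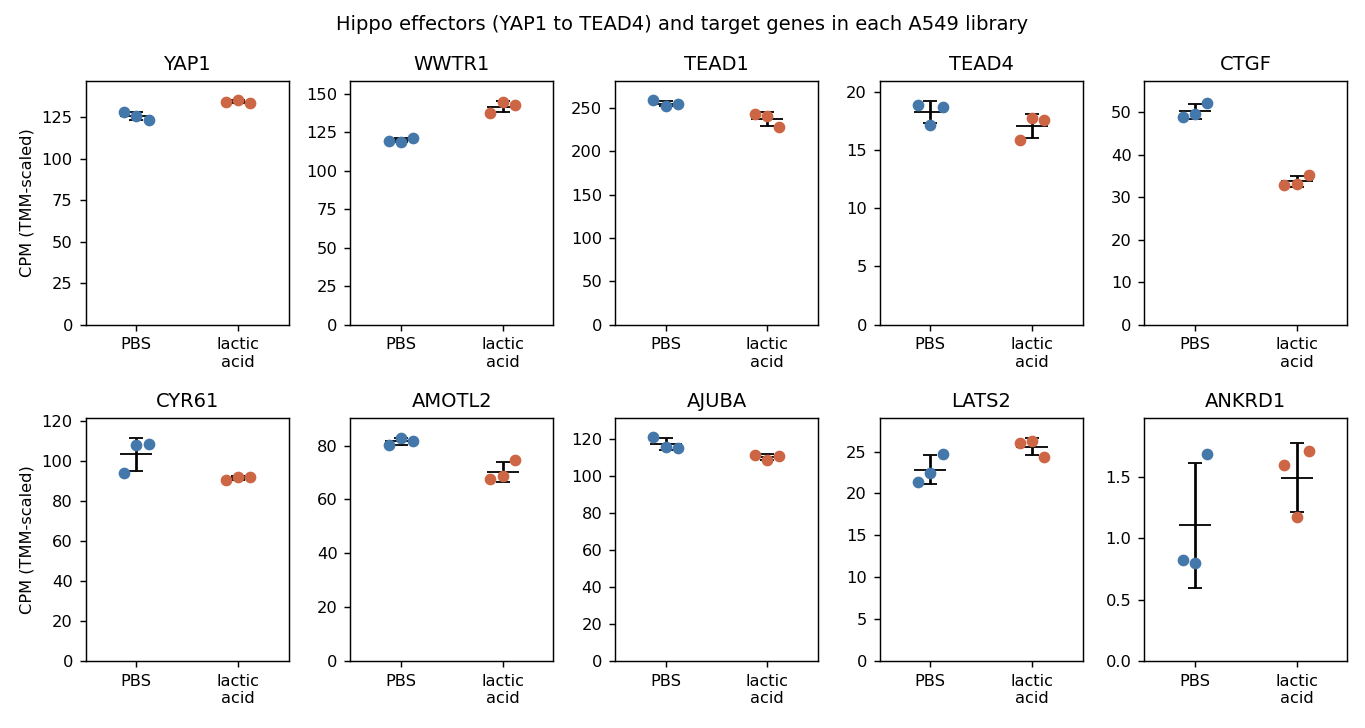
TMM-scaled CPM of each of the 10 genes in every library, with PBS on the left and lactic acid on the right of each panel; points are libraries and bars are the mean and SD of 3. The 3 CTGF values after lactic acid lie between 32.9 and 35.2 CPM, below the PBS values of 49.0 to 52.1, while those of WWTR1 lie above.

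The coactivators come first. WWTR1 (chr3:149517235-149736714, minus strand, GRCh38) stood at 119.6, 119 and 121 CPM in PBS and at 138, 145 and 143 CPM after lactic acid. Every lactic acid library was above every PBS library. The mean rose 1.18-fold, from 119.9 ± 1.17 in PBS to 142 ± 3.55 CPM (log2 fold change 0.24 with an SE of 0.0358, adjusted p = 0.000309). In edgeR's quasi-likelihood fit this call held in all 6 fits that left out 1 library, with adjusted p between 0.000763 and 0.0029. YAP1 (chr11:102110461-102233423, plus strand), the paralogue of TAZ, read 128, 126 and 124 CPM in PBS and 134, 135 and 133 CPM after lactic acid. Its groups did not overlap either, but the difference was small and missed the threshold (log2 fold change 0.094 with an SE of 0.0346, adjusted p = 0.0538, 95% interval 0.018 to 0.17). DESeq2 and limma-voom placed it just inside, with adjusted p = 0.0494 and 0.0315, and limma-trend on log2(FPKM + 1) gave a log2 change of 0.18 without a call (adjusted p = 0.0688). Both genes share exon bases with an antisense gene, WWTR1-AS1 with 795 and AP000942.2 with 628. Whether the counting used strand is not given in the sources used here, so reads from those partners cannot be told apart.

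The count ratio of YAP1 to WWTR1 within a library does not depend on depth. On the log2 scale it was 0.10, 0.082 and 0.029 in PBS and −0.037, −0.10 and −0.10 after lactic acid, a difference of −0.15. All 3 lactic acid values were below all 3 PBS values, and the exact two-sided permutation test gave p = 0.10 (0.15 after adjustment over 3 ratios), the smallest that 3 libraries against 3 can give. In the authors' deposited FPKM, which divide by gene length, the same log2 ratio was −0.036, −0.021 and −0.019 in PBS and 0.16, −0.17 and −0.12 after lactic acid, and the groups overlapped. Lactic acid library 1 stood apart: its YAP1 value was 30.1 FPKM against 25.2 and 25.6 in the other two. The gene length implied by count and FPKM for YAP1 was 4447 bases in that library and 5153 to 5471 in the rest, whereas for WWTR1 it ran from 4982 to 5092. The cause of this departure was not tested.

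TEAD1 and TEAD4, the DNA-binding partners among the 10 genes, did not follow TAZ. TEAD1 (chr11:12674591-12944483, plus strand) had the highest CPM of the 10 genes, with 258, 252 and 254 in PBS and 243, 240.4 and 227 after lactic acid. The groups did not overlap, and the mean fell from 255 ± 3.32 in PBS to 237 ± 8.35 CPM (log2 fold change −0.11 with an SE of 0.0354, adjusted p = 0.0367, 95% interval −0.18 to −0.028). Omitting PBS library 1, 2 or 3 or lactic acid library 3 ended this call, at an adjusted p of 0.0514 to 0.125. Limma-trend on log2(FPKM + 1) gave a log2 change of −0.18 (adjusted p = 0.0138). The gene length implied by count and FPKM for TEAD1 was 7888 to 8256 bases in PBS and 8331 to 8436 after lactic acid. The larger change in FPKM includes this shift in length, whose cause was not tested. TEAD4 (chr12:2959330-3040673, plus strand) stood at 18.9, 17.1 and 18.7 CPM in PBS and 15.8, 17.8 and 17.6 after lactic acid, and its groups overlapped. Its log2 fold change was −0.10 with a 95% interval of −0.26 to 0.070 (adjusted p = 0.359), so neither a fall like that of TEAD1 nor no change lies outside the interval. The log2 count ratio of TEAD1 to TEAD4 was 3.78, 3.88 and 3.76 in PBS and 3.94, 3.76 and 3.69 after lactic acid (difference −0.0095, exact two-sided permutation p = 0.80).

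Among the targets, CTGF (chr6:131948176-131951373, minus strand), a secreted matricellular protein widely used as a readout of YAP and TAZ, showed the largest called change. Its raw counts were 1661, 1667 and 2069 in PBS and 1170, 1410 and 1320 after lactic acid. Scaled to depth these were 49.0, 49.5 and 52.1 CPM in PBS and 32.9, 33.2 and 35.2 CPM after lactic acid. The groups lay far apart relative to their spread. The mean went from 50.2 ± 1.70 in PBS to 33.7 ± 1.28 CPM, 0.672 of the PBS level (log2 fold change −0.57 with an SE of 0.0441, adjusted p = 2.12e-06, 95% interval −0.67 to −0.48). The size of this change was above that of 89.5% of tested genes. The call held without any 1 library, with log2 fold changes from −0.61 to −0.55 and adjusted p up to 4.44e-05. CTGF shares 195 exon bases with an antisense gene, AL133346.1, so the limit on strand named for WWTR1 and YAP1 applies here too.

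CYR61 (chr1:85580761-85583962, plus strand), a related secreted matricellular protein, fell less. It read 93.7, 108 and 108 CPM in PBS and 90.3, 91.8 and 92.0 CPM after lactic acid. The lactic acid libraries lay close together, below every PBS library, but PBS library 1 was near them. The mean fell from 103 ± 8.23 in PBS to 91.4 ± 0.928 CPM (log2 fold change −0.18 with an SE of 0.0520, adjusted p = 0.0212, 95% interval −0.29 to −0.062). Omitting PBS library 2 or 3 or lactic acid library 1 or 2 ended the call, at an adjusted p of 0.0518 to 0.0822, and omitting PBS library 1 gave an adjusted p of 0.000578. The log2 count ratio of CYR61 to CTGF was 0.94, 1.12 and 1.05 in PBS and 1.46, 1.47 and 1.39 after lactic acid. The ratio was higher in every lactic acid library, by 0.40 on average (exact two-sided permutation p = 0.10, the smallest possible, and 0.15 adjusted over 3 ratios). In the deposited FPKM the difference was 0.40 too. That is no separate finding, since the gene length implied by count and FPKM varied only 1.022-fold over the libraries for each gene.

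**Figure D2:**
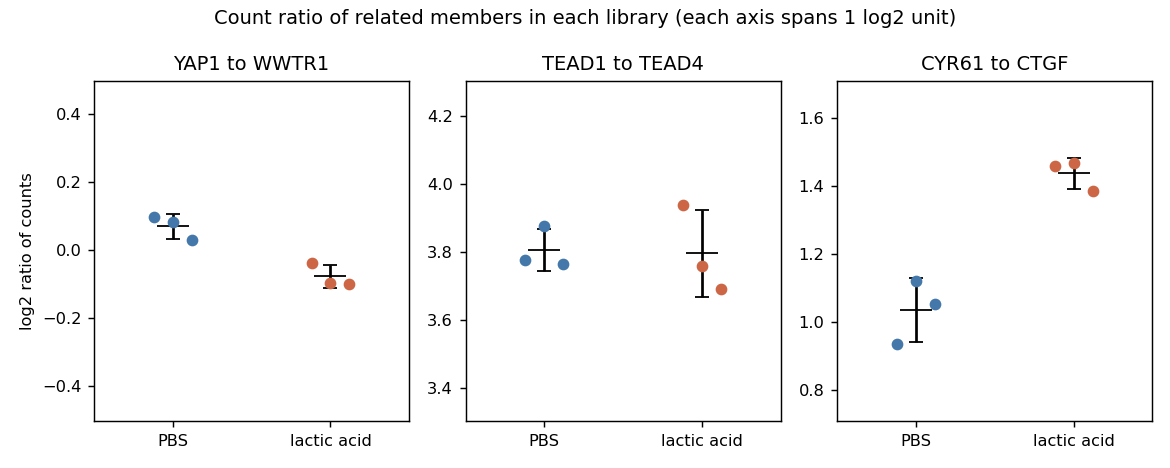
Log2 ratio of the counts of related genes within each library, for PBS and lactic acid; points are libraries, bars are the mean and SD of 3, and each axis spans 1 log2 unit. The ratio of CYR61 to CTGF is higher after lactic acid in all 3 libraries, that of YAP1 to WWTR1 is lower, and that of TEAD1 to TEAD4 overlaps.

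The feedback genes did not move together. AMOTL2 (chr3:134355874-134375479, minus strand) had 80.4, 82.8 and 81.6 CPM in PBS and 67.8, 68.7 and 74.5 CPM after lactic acid. Its groups did not overlap, and the mean fell from 81.6 ± 1.21 in PBS to 70.3 ± 3.66 CPM (log2 fold change −0.21 with an SE of 0.0417, adjusted p = 0.00190, 95% interval −0.31 to −0.12), a call that held without any 1 library. It shares 187 exon bases with RPL39P5, a pseudogene on the same strand, whose reads could be counted with it. LATS2 (chr13:20973032-21061547, minus strand) read 21.4, 22.5 and 24.7 CPM in PBS and 26.0, 26.3 and 24.4 CPM after lactic acid. PBS library 3 was above the lowest lactic acid library, and the difference was not called (log2 fold change 0.16 with an SE of 0.0658, adjusted p = 0.0789, 95% interval 0.017 to 0.31). Without PBS library 3 it was called, at a log2 fold change of 0.22 (edgeR adjusted p = 0.0283). AJUBA (chr14:22971174-22982642, minus strand) stood at 121, 115 and 115 CPM in PBS and 111, 109 and 111 CPM after lactic acid. Every lactic acid library was lower, by a small amount that missed the threshold (log2 fold change −0.088 with an SE of 0.0365, adjusted p = 0.0830, 95% interval −0.17 to −0.0080). It was called with library totals alone (adjusted p = 0.0339) and in limma-trend on log2(FPKM + 1) (0.0247). In these settings, which lack TMM scaling, the median log2 fold change of the genes tested was also lower. It was −0.019 over 15474 genes and −0.026 over the 12145 that passed the FPKM filter, beside 0.0024 over 15474 genes in the test as reported. The cause of the added AJUBA calls was not tested.

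ANKRD1 (chr10:90912096-90921276, minus strand), an ankyrin repeat protein that is a strong YAP target in many cell types, was close to the floor in A549. Only 28, 27 and 67 reads were counted in PBS and 57, 50 and 64 after lactic acid. PBS library 3 held as much as the lactic acid libraries, and the groups overlapped. In CPM the means were 1.11 ± 0.505 and 1.49 ± 0.281 (log2 fold change 0.42 with an SE of 0.314, adjusted p = 0.336), and the 95% interval of the log2 change, −0.27 to 1.11, includes 0 and lies above the log2 change of CTGF. Without PBS library 3 the log2 fold change was 0.87 (edgeR adjusted p = 0.0484).

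**Figure D3:**
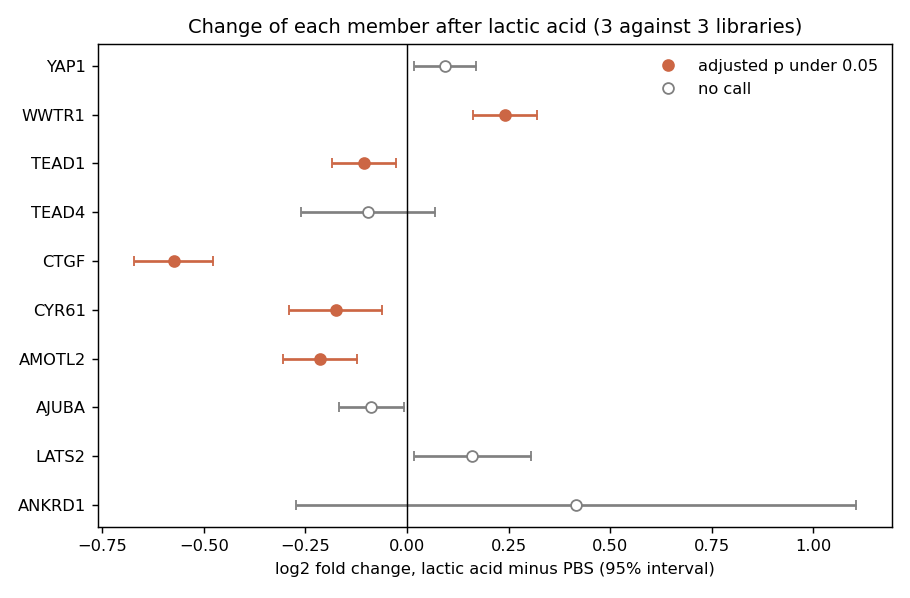
Log2 fold change of lactic acid over PBS for the 10 genes with 95% intervals from edgeR, 3 libraries against 3; filled points passed an adjusted p under 0.05. CTGF lies at −0.57, AMOTL2 at −0.21, CYR61 at −0.18 and TEAD1 at −0.11, while WWTR1 lies at 0.24.

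Per gene length, in the deposited FPKM, CYR61 was the most abundant of these transcripts in PBS (42.8 ± 3.83 FPKM), followed by TEAD1 (31.9 ± 0.811), AJUBA (28.1 ± 0.530), WWTR1 (24.1 ± 0.432) and YAP1 (23.7 ± 0.500). CTGF (20.4 ± 0.880), AMOTL2 (17.6 ± 0.343), TEAD4 (10.6 ± 0.645), LATS2 (3.93 ± 0.332) and ANKRD1 (0.522 ± 0.248) came after. WWTR1 and YAP1 were the only neighbours in this order whose PBS libraries overlapped. After lactic acid CYR61 remained first at 36.9 ± 0.376 FPKM. TEAD1 (28.0 ± 1.27), WWTR1 (27.8 ± 0.745), YAP1 (27.0 ± 2.74) and AJUBA (25.8 ± 0.150) overlapped from each to the next. CTGF (13.3 ± 0.517 FPKM) now stood below AMOTL2 (14.8 ± 0.830), and the libraries of this pair did not overlap in either group.

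Among the other TEAD cofactors VGLL4 rose and VGLL3 fell. The VGLL proteins bind TEAD factors as YAP and TAZ do, and VGLL4 is known as a competitor that represses TEAD targets. VGLL4 read 55.6, 50.3 and 52.0 CPM in PBS and 79.9, 79.1 and 79.8 CPM after lactic acid. The groups were well separated, and the mean rose 1.51-fold from 52.6 ± 2.69 in PBS to 79.6 ± 0.456 CPM (log2 fold change 0.60 with an SE of 0.0405, adjusted p = 8.39e-07). VGLL3, another TEAD cofactor, fell from 54.9 ± 1.38 in PBS to 44.2 ± 2.36 CPM (log2 fold change −0.31 with an SE of 0.0448, adjusted p = 0.000253). TEAD2 and TEAD3, the remaining TEAD genes, had log2 fold changes of 0.029 and 0.084, and neither was called (adjusted p = 0.744 and 0.469). Their 95% intervals were −0.10 to 0.16 and −0.10 to 0.27. The lactic acid libraries of TEAD3 all lay above its PBS libraries, while the groups of TEAD2 overlapped. VGLL1 had 0 counts in all 6 libraries, which allows up to 0.0699 to 0.0896 CPM per library, and VGLL2 had 6 counts in 1 PBS library and 0 elsewhere, so neither was tested.

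In the kinase core upstream of YAP and TAZ, 4 of 14 tested genes rose and 1 fell, with a median log2 fold change of 0.054. Over all tested genes 18.7% rose and 16.7% fell, the background for this and the following lists. MAP4K4, a kinase that can activate LATS in parallel with the MST kinases, rose 1.22-fold from 146 ± 1.69 in PBS to 178 ± 7.28 CPM (log2 fold change 0.29 with an SE of 0.0387, adjusted p = 0.000142). TAOK3, of the kinase family that activates MST, rose 1.26-fold from 21.7 ± 1.15 in PBS to 27.4 ± 0.641 CPM (log2 fold change 0.33 with an SE of 0.0579, adjusted p = 0.000916). MOB1B, a coactivator of LATS, and SAV1, the scaffold of the MST kinases, rose with log2 fold changes of 0.25 (adjusted p = 0.000915) and 0.24 (adjusted p = 0.0114). Omitting PBS library 1 or lactic acid library 2 ended the SAV1 call (adjusted p = 0.0599 and 0.0724), as did limma-trend on log2(FPKM + 1) (0.0599). WWC1 (KIBRA), an upstream activator of LATS chosen after its value was seen, was the gene that fell (log2 fold change −0.12, adjusted p = 0.0159). LATS1, the partner kinase of LATS2, was not called (log2 fold change 0.11, adjusted p = 0.0594; chosen likewise).

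The STRIPAK complex carries a phosphatase that switches the MST kinases off. Of 9 tested subunit genes 1 rose and 1 fell, with a median of −0.024. CTTNBP2NL rose 1.27-fold from 25.9 ± 0.899 in PBS to 32.8 ± 0.420 CPM (log2 fold change 0.34 with an SE of 0.0472, adjusted p = 0.000191), and STRN4, a striatin scaffold, fell from 108 ± 4.52 in PBS to 93.5 ± 2.92 CPM (log2 fold change −0.21 with an SE of 0.0419, adjusted p = 0.00211). SIKE1 and STRN, also subunits, had log2 fold changes of −0.17 (adjusted p = 0.0536) and 0.085 (adjusted p = 0.0986). Among proteins that bind YAP and TAZ or organise the junctions that signal to them, 3 of 19 rose and 2 fell, with a median of 0.015. FAT1, a giant cadherin, PATJ, a scaffold of the Crumbs polarity complex, and PTPN21, a phosphatase, rose with log2 fold changes of 0.13, 0.25 and 0.19 (adjusted p = 0.0150, 0.0150 and 0.0208), and limma-trend on log2(FPKM + 1) called none of them (0.0511, 0.131 and 0.0935). Omitting PBS library 2 or 3 or lactic acid library 1 or 3 also ended the FAT1 call, at an adjusted p of 0.0511 to 0.0791. For PATJ this held of PBS library 1 or 3 and lactic acid library 1 (0.0505 to 0.0542), and for PTPN21 of PBS library 2 and lactic acid library 1 or 3 (0.0602 to 0.0976). SCRIB, a polarity scaffold, fell from 109.7 ± 4.67 in PBS to 93.9 ± 4.20 CPM (log2 fold change −0.22 with an SE of 0.0450, adjusted p = 0.00237), and so did TJP1 (ZO-1), chosen after its value was seen (log2 fold change −0.10, adjusted p = 0.0418).

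**Figure D4:**
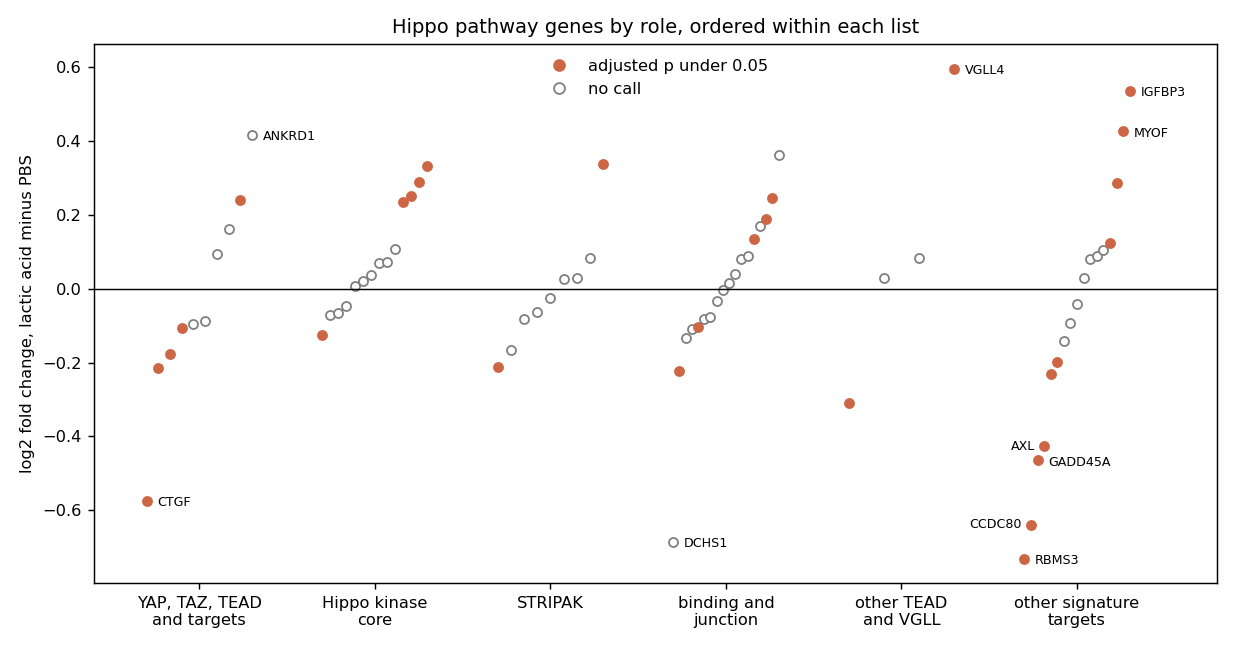
Log2 fold change of lactic acid over PBS for the tested genes of each list with an SE under 0.6, which left out 1, ordered by value within a list; filled points passed an adjusted p under 0.05, and genes beyond 0.4 on either side are labelled whatever the rule for names. VGLL4 and IGFBP3 stand at 0.60 and 0.54, and CTGF, CCDC80 and RBMS3 at −0.57, −0.64 and −0.73.

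Other YAP and TAZ targets moved in both directions. Of the 17 further genes of a published pan-cancer signature of YAP and TAZ targets, to which CTGF, CYR61, ANKRD1, AMOTL2 and LATS2 also belong, 4 rose and 6 fell. Their median log2 fold change was −0.040, and the median size was 0.20 beside 0.17 over all tested genes. CCDC80, a secreted matrix protein, fell from 559.6 ± 16.5 in PBS to 359 ± 4.61 CPM (log2 fold change −0.64 with an SE of 0.0313, adjusted p = 6.30e-08). AXL, a receptor tyrosine kinase linked to drug resistance, fell from 218 ± 7.50 in PBS to 162 ± 8.90 CPM (log2 fold change −0.43 with an SE of 0.0450, adjusted p = 2.34e-05). In the other direction IGFBP3, a carrier of insulin-like growth factors, rose 1.45-fold from 94.9 ± 2.83 in PBS to 138 ± 2.94 CPM (log2 fold change 0.54 with an SE of 0.0380, adjusted p = 1.14e-06). MYOF, a membrane repair protein of the ferlin family, rose 1.34-fold from 479.9 ± 4.55 in PBS to 645 ± 37.9 CPM (log2 fold change 0.43 with an SE of 0.0394, adjusted p = 8.21e-06). DOCK5, an exchange factor for Rac, and CRIM1, a membrane protein that binds BMPs, rose with log2 fold changes of 0.29 and 0.12 and were named after their values were seen (adjusted p = 0.000123 and 0.0251). RBMS3, an RNA-binding protein named likewise, fell from 18.4 ± 1.15 in PBS to 11.1 ± 0.462 CPM (log2 fold change −0.73 with an SE of 0.0799, adjusted p = 3.14e-05). The calls of CCDC80, AXL, IGFBP3 and MYOF held without any 1 library.

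The course of CTGF over the 6 libraries was most closely matched by PIK3CD and CEP55, each with a Pearson r of 0.9992 on log2 CPM. The comparison took 10794 genes with a standard symbol whose mean reached 5 CPM. PIK3CD encodes a catalytic subunit of phosphoinositide 3-kinase and CEP55 a protein of the abscission machinery. Since r ignores size, their log2 fold changes were −0.21 and −0.47 beside −0.57 for CTGF. BRCA1 came next (r = 0.9989, log2 fold change −0.45). An r above 0.9 was reached by 1550 genes. For CYR61 the closest were TMEM201, a protein of the inner nuclear membrane (r = 0.9952), and SLX1B (r = 0.9888), a structure-specific endonuclease subunit with a near-identical copy, SLX1A, that can share its reads. Over 6 libraries in 2 groups these values are a description only.

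The cells carried the keratins of an epithelial line, with KRT8 (chosen after its value was seen) at 1874 ± 83.5 and KRT7 at 1850.3 ± 32.8 CPM in PBS, but few defining transcripts of alveolar type 2 cells: NKX2-1 and SFTPA1 had 0 counts in all 6 libraries. Endothelial markers summed to at most 0.240 CPM in any library, and CD3E had 0 counts. None of the 2 tested alveolar genes was called, and their list summed to 44.6 to 49.8 CPM in PBS and 44.1 to 44.6 after lactic acid, nearly all of it ABCA3. Of the 2 tested leukocyte genes 1 fell, CD68, a lysosomal protein, from 40.3 ± 2.76 in PBS to 30.9 ± 1.56 CPM, and that list summed to 44.1 to 48.0 CPM in PBS and 33.8 to 38.5 after lactic acid. Of the epithelial list 4 of 6 fell and 1 rose, with sums of 4762 to 5039 CPM in PBS and 4057 to 4156 after lactic acid. KRT7 fell to 1293 ± 9.67 CPM after lactic acid (log2 fold change −0.52, adjusted p = 2.84e-08). CDH1 and KRT18 fell with log2 fold changes of −0.77 and −0.20 (adjusted p = 3.67e-05 and 0.000522). KRT19, chosen after its value was seen, was the gene that rose (log2 fold change 0.18, adjusted p = 0.00515). EPCAM, at 40 to 130 counts per library, went from 3.29 ± 0.501 in PBS to 1.62 ± 0.434 CPM (log2 fold change −1.01 with an SE of 0.223, adjusted p = 0.00426). Of the fibroblast-associated list 4 of 5 tested genes fell, with sums of 114 to 127 CPM in PBS and 81.1 to 89.0 after lactic acid, most of it COL1A1 (112 ± 7.59 and 79.7 ± 4.01 CPM). The part of these shifts in the falls of CTGF, CYR61 and AMOTL2 was not tested.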

How the data were processed

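Poly(A) RNA of A549 cells was sequenced as 150-bp pairs, 3 libraries per group, per the labels' protocols. The authors deposited whole-number counts per gene and FPKM per gene; per the submitters' processing notes the tools were HISAT2, StringTie and DESeq2 on GRCh38, without version or role, and the strand setting is not given in the sources used here. Columns called NS were matched to the PBS samples through the library names in the labels.

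Deposited counts were tested with edgeR 4.0.16 in R 4.3.3 (TMM, filterByExpr at 10 counts and a total of 15, quasi-likelihood F test, two-sided, group as the only term). The SE is the log2 fold change divided by the square root of F, and the 95% interval uses the test's t quantile. Alternatives used DESeq2 1.42.0, limma 3.58.1, other scalings and filters, each library left out, a replicate block and the deposited FPKM (pseudocounts of 1 and 0.1; 3 libraries at 1 FPKM or more, or no filter). TMM factors were 0.988 to 1.02. The edgeR test was checked on simulated counts. The replicates are called biological. Each edgeR p-value weighs the group difference against variation between these libraries, with a dispersion estimate that also draws on other genes.

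The 10 genes and the lists were chosen with earlier results of these data known. Named genes are the 10. Of each other list, up to 4 with the smallest p whose mean reached 1 CPM were named, or all where fewer than 5 were tested. For CYR61 and CTGF, the 3 most correlated genes with a standard symbol whose mean reached 5 CPM were added. Not all genes that met this rule are reported here. Coordinates and gene overlaps are from GENCODE release 29 (GRCh38).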

Additional observations from a re-analysis of the deposited data

How the results depend on the processing

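Over the alternatives, no member changed the sign of its log2 fold change, and WWTR1, CTGF and AMOTL2 were called in each. YAP1 was called with DESeq2 (log2 fold change 0.091, adjusted p = 0.0494) and limma-voom (0.095, 0.0315), which made 2 rises among the 10 genes with each. AJUBA was called with library totals alone (−0.11) and in the 3 fits on FPKM (−0.12 and −0.13), and CYR61 was not called in unfiltered limma-trend on log2(FPKM + 1) (−0.20, adjusted p = 0.0803). With 1 library left out, 1 to 3 of the 10 genes rose and 2 or 3 fell, and over all genes 2362 to 2578 rose and 2141 to 2402 fell, beside 2892 and 2584 with all 6. Without 1 library log2 fold changes ran from −0.12 to −0.082 for TEAD1, −0.24 to −0.14 for CYR61, 0.23 to 0.87 for ANKRD1 and 0.11 to 0.22 for LATS2. On FPKM the log2 changes were −0.18 to −0.19 for TEAD1, which was called in each of these 3 fits. They were 0.18 for YAP1, which was called in none, and 0.10 to 0.12 for LATS2. Unfiltered, the change was 0.16 for ANKRD1, and filtered FPKM fits gave ANKRD1 no value. The FPKM fits called 1803, 1798 and 1618 genes up, of 12145, 12145 and 20539 tested, beside 15474 tested on counts. They called 0 of the binding and junction genes up, and the filtered FPKM fits called 2 of these genes down. The falls of the kinase core were 2 with library totals or DESeq2, and those of STRIPAK 2 with RLE factors, library totals, the filter of 50 counts in 3 libraries or the replicate block, each 1 in the test as reported. With 1 library left out, falls were 0 to 1 in the kinase core and 1 to 2 in STRIPAK, and 1 to 3 junction genes rose while 1 to 2 fell. The log2 ratio of TEAD1 to TEAD4 differed by −0.081 to 0.043 and changed sign without PBS library 2 (0.026) or lactic acid library 2 (0.0090) or 3 (0.043). TEAD2, not called anywhere, ran from −0.011 to 0.092 with 1 library left out, below 0 without PBS library 2 or 3, and was negative on FPKM (−0.034, −0.036 and −0.034). SIKE1 was called with RLE factors, library totals, the stricter filter and the replicate block, and without PBS library 2. Same-numbered libraries shared little deviation from their group means (correlations of 0.022, −0.024 and 0.031). PBS libraries 1 and 3 correlated most with the lactic acid library of the same number, and PBS library 2 with number 1. These values cannot settle whether the numbers pair the libraries. With the replicate block the counts of calls among the 10 genes were 1 rise and 4 falls. The causes of these differences were not tested. Depth limits ANKRD1 most, at 27 to 67 counts per library.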
